A study of Mus musculus with 36 samples.

Results

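The D-type cyclin genes, the kinases they activate in G1, the kinase inhibitor gene Cdkn1b and the genes of the Rb family were followed through 36 RNA sequencing libraries of mouse skeletal muscle stem cells (MuSCs), the Pax7-expressing satellite cells that rebuild muscle fibres. The genes were taken by symbol: 10 were named (Ccnd1, Ccnd2, Ccnd3, Cdk4, Cdk6, Cdk2, Cdkn1b, Rb1, Rbl2 and Rbl1), and 9 of them had values among the 11337 genes of the table. Rbl1 was not analysed here. Each library came from the hindlimb MuSCs of 1 male mouse of the strain that the labels write as C56BL/6.

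In the wheel cohort of 21 mice a running wheel stood in the cage for 3 weeks. The groups were O(+Ex), 5 mice of 18 months with a wheel free to turn, O(-Ex), 7 mice of 18 months with a locked wheel, Y(+Ex), 3 mice of 3 months with a free wheel, and Y(-Ex), 6 mice of 3 months with a locked wheel. Their MuSCs were sorted as live cells carrying VCAM and lacking CD31, CD45 and Sca1. In the Ccnd1 cohort of 15 mice every animal, controls included, carried Pax7_CreERT2 and R26R_YFP and was injected with tamoxifen, which activates Cre in Pax7-expressing cells, and live YFP+ cells were sorted 6 weeks later. The groups were Y(KO), 5 mice of 3 months with Ccnd1 flox/flox, Y(HET), 4 mice of 3 months with Ccnd1 +/flox, O(WT), 3 mice of 18 months with Ccnd1 +/+, and Y(WT), 3 mice of 3 months with Ccnd1 +/+. No mouse of the Ccnd1 cohort had exercise per the labels, and none of its groups shows the effect of tamoxifen or Cre alone. Which exons are floxed, and how many alleles recombined, the labels do not say.

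As background, a D-type cyclin binds Cdk4 or Cdk6 in response to growth signals, and the complex phosphorylates the pocket proteins encoded by Rb1, Rbl1 and Rbl2. Phosphorylated pocket proteins release E2F factors, which switch on genes of DNA replication, among them cyclins that work with Cdk2. Cdkn1b encodes p27, which blocks Cdk2 complexes, is bound by D cyclin complexes and helps to hold satellite cells in quiescence, the resting state of MuSCs in uninjured muscle.

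The deposited values are RPKM, read counts divided by gene length in kb and by library size, so levels of different genes can be set side by side per length. Depth per library is not known, apart from the 20 to 40 M reads named in the labels' protocols. The log2 values lacked 6 directions of variation across libraries, removed before deposit in a way the labels do not describe, and along them Y(WT) had been drawn together with Y(-Ex) and O(WT) with O(-Ex), so that the age effects of the 2 cohorts are not independent. The removed directions held 47.2% of the squared weights of the contrast of Y(KO) with Y(WT), 31.5% for Y(HET) with Y(WT), 61.7% for O(WT) with Y(WT) and 28.5% for O(-Ex) with Y(-Ex). In the other comparisons they held 9.25% to 12.6%, and their part in the changes of single genes was not tested. All 10 MuSC marker genes were measured, and Pax7 averaged between 15.8 and 26.4 RPKM in every group. The 4 Y(HET) libraries stood apart in the summed level of 9 keratinocyte genes, a list chosen after the values were seen, at 76.9 to 196 RPKM, against 3.66 to 23.3 RPKM in the other 32 libraries, of which O(WT) 2 was the highest. The summed haematopoietic markers were highest in O(WT) 3, at 245 RPKM. In bulk RNA of this kind, fewer cells of one type and less RNA per cell cannot be told apart.

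Cdk4 was the most abundant of the genes, with a mean of 40.6 RPKM over the 36 libraries, and Cdk6, which can stand in for Cdk4, was the least, at 1.18 RPKM. Ccnd3 (16.1 RPKM) lay above Ccnd1 (10.1 RPKM) and Ccnd2 (3.89 RPKM). Cdkn1b averaged 5.10 RPKM, Cdk2 4.75 RPKM, Rb1 4.24 RPKM and Rbl2 3.66 RPKM. Ccnd1 varied most, with an 11.6-fold range between its lowest and highest library, while the other 8 genes ranged from 1.70-fold (Cdk4) to 3.00-fold (Cdk6). The low end of the Ccnd1 range was a Y(KO) library, where Ccnd1 was the targeted gene. Outside Y(KO) its level ran from 6.11 RPKM in O(-Ex) to 23.9 RPKM in O(+Ex).

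The promoter of Cdk4 is shown because Cdk4 was the gene of the set that followed Ccnd1 most closely across libraries, and that of Cdk2 because it was the kinase gene called in both the genotype and the age comparisons; both were chosen after their values were seen. The windows are RefSeq sequences of GRCm38.p6, 250 bases before to 50 after the annotated start, on the strand of the gene. Capitals mark the E-box CACGTG (Cdk4, chr10:127063285-127063584, plus strand) or an E2F form (Cdk2, chr10:128705002-128705301, minus strand).
Cdk4: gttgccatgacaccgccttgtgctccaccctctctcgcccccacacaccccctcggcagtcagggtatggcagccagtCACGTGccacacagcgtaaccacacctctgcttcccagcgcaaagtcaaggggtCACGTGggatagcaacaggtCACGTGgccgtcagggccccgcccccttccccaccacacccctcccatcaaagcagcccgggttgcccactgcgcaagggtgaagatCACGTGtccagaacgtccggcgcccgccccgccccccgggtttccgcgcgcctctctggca
Cdk2: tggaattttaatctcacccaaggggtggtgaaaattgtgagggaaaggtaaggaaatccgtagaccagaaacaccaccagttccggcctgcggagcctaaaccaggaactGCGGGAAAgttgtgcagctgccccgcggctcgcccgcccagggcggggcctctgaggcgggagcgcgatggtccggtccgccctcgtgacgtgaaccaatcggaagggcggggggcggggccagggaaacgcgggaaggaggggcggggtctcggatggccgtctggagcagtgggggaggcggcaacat
Both strands were searched for CACGTG and for the E2F forms TTTCCCGC, TTTGGCGC, TTTCGCGC and TTTGCCGC. The Cdk4 window held 4 E-boxes and none of these E2F forms, and the Cdk2 window held no E-box and 1 E2F form, read here on the opposite strand. Of 32851 windows of the same length 7.15% held at least 1 E-box and 2.26% at least 1 E2F form. GC boxes (GGGCGG), found in 35.7% of windows, occurred 3 times in the Cdk4 window and 6 times in the Cdk2 window, and none overlapped the capitals. A match describes letters in the window and is not a measured binding site.

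**Figure D1:**
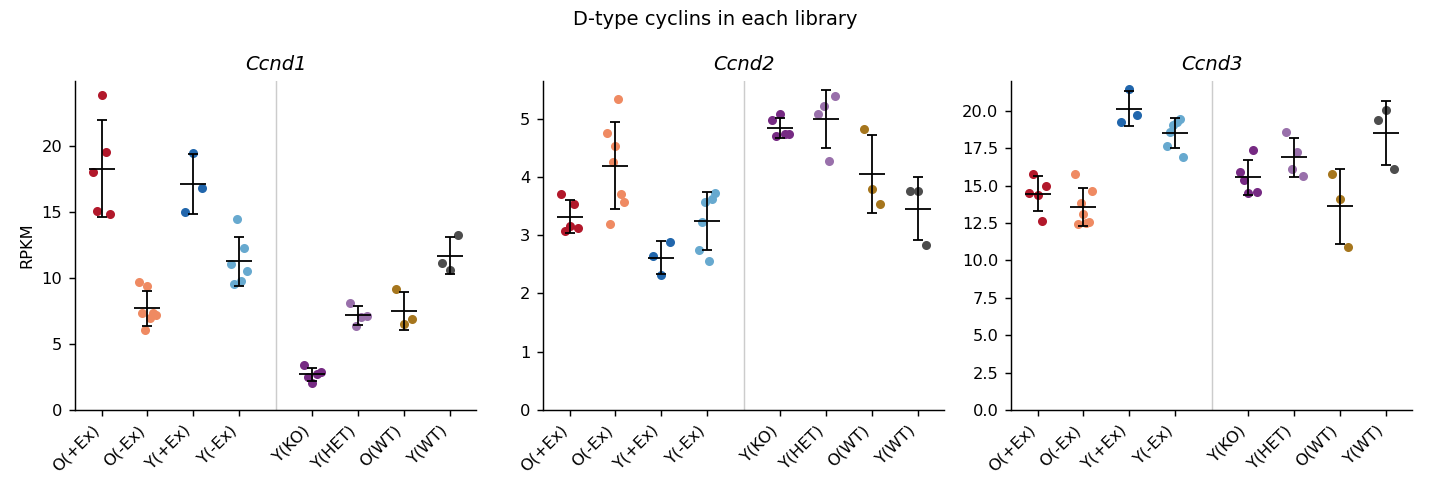
Level of Ccnd1, Ccnd2 and Ccnd3 in RPKM (vertical axes, from 0) in each library, by group (horizontal axes, wheel cohort left of the grey line). Each point is 1 mouse, and the black bars give mean and SD. The 5 Y(KO) libraries lie between 2.07 and 3.40 RPKM for Ccnd1, below every other library.

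The targeted gene followed the genotype labels in each library. Ccnd1, which encodes cyclin D1 (ENSMUSG00000070348, mm10 chromosome 7, 144929931 to 144939925, minus strand), had 3.40, 2.47, 2.07, 2.72 and 2.88 RPKM in the Y(KO) libraries. It had 8.13, 6.37, 7.08 and 7.14 RPKM in the Y(HET) libraries, against 11.2, 10.6 and 13.3 RPKM in the Y(WT) libraries. The 3 genotypes did not overlap, and Y(KO) kept 23.1% and Y(HET) 61.4% of the Y(WT) mean. The log2 change of Ccnd1 was -2.12 ± 0.15 in Y(KO) against Y(WT) (SE, adjusted p = 6.42e-06), -0.70 ± 0.16 in Y(HET) against Y(WT) (adjusted p = 0.0261) and -1.42 ± 0.14 in Y(KO) against Y(HET) (adjusted p = 0.000255). Reads from exons that were not deleted may be part of the level left in Y(KO). The Y(HET) call was lost without Y(WT) 2, Y(WT) 3, Y(HET) 2 or Y(HET) 4 in turn (adjusted p = 0.0719, 0.081, 0.0694 and 0.0644), with a change of -0.77 to -0.61.

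Ccnd2, which encodes cyclin D2 (ENSMUSG00000000184, mm10 chromosome 6, 127125162 to 127152193, minus strand), was higher where Ccnd1 had been deleted. Its level was 4.97, 4.70, 5.08, 4.73 and 4.74 RPKM in the Y(KO) libraries and 5.08, 5.22, 4.27 and 5.39 RPKM in the Y(HET) libraries, against 3.76, 3.76 and 2.83 RPKM in the Y(WT) libraries. Every Y(KO) and Y(HET) library lay above every Y(WT) library. Ccnd2 rose by 0.50 ± 0.12 on the log2 scale in Y(KO) (SE, adjusted p = 0.0302) and by 0.54 ± 0.13 in Y(HET) (adjusted p = 0.0314). The difference between Y(KO) and Y(HET) was -0.04, with a 95% confidence interval of -0.28 to 0.20, so that a larger rise in Y(KO) than in Y(HET) was not found.

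In RPKM the Ccnd2 mean was higher by 1.39 in Y(KO) and by 1.54 in Y(HET), while the Ccnd1 mean differed from that of Y(WT) by -8.99 in Y(KO) and by -4.52 in Y(HET). The gain of Ccnd2 thus equalled 15.5% of the loss of Ccnd1 in Y(KO) and 34.0% of the loss in Y(HET). The call of Ccnd2 in Y(KO) was lost without Y(WT) 2, Y(WT) 3, Y(KO) 1, Y(KO) 3 or Y(KO) 5 in turn (adjusted p = 0.0631, 0.123, 0.054, 0.0614 and 0.0538), with a change of 0.36 to 0.57. In Y(HET) it was lost without Y(WT) 2, Y(WT) 3, Y(HET) 1, Y(HET) 2 or Y(HET) 4 in turn (adjusted p = 0.0725, 0.103, 0.0676, 0.075 and 0.0827), with a change of 0.40 to 0.61. A fit of only the 2 groups compared also ended both calls.

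Ccnd3, which encodes cyclin D3 (ENSMUSG00000034165, mm10 chromosome 17, 47505051 to 47599691, plus strand), did not pass the test in either genotype. It had 15.9, 15.4, 14.5, 17.4 and 14.6 RPKM in the Y(KO) libraries and 18.6, 16.1, 17.3 and 15.6 RPKM in the Y(HET) libraries, against 19.4, 20.1 and 16.1 RPKM in the Y(WT) libraries. The libraries of the groups overlapped. The log2 change was -0.25 in Y(KO) (95% confidence interval -0.50 to 0.00, adjusted p = 0.195) and -0.13 in Y(HET) (interval -0.39 to 0.13, adjusted p = 0.552), and both intervals ended below the rise measured for Ccnd2.

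Summed per length, the D cyclins came to 23.1 ± 1.39 RPKM in Y(KO) (SD, n = 5) and 29.1 ± 1.85 RPKM in Y(HET) (n = 4), against 33.7 ± 1.27 RPKM in Y(WT) (n = 3). The libraries of the 3 genotypes did not overlap in this sum, which in Y(KO) was 68.6% and in Y(HET) 86.3% of that in Y(WT). Ccnd1 made up 11.7% of the sum in Y(KO) and 24.7% in Y(HET), against 34.9% in Y(WT). The share of Ccnd2 was 21.03% in Y(KO) and 17.2% in Y(HET), against 10.2% in Y(WT), and that of Ccnd3 67.3% and 58.1%, against 54.9%.

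**Figure D2:**
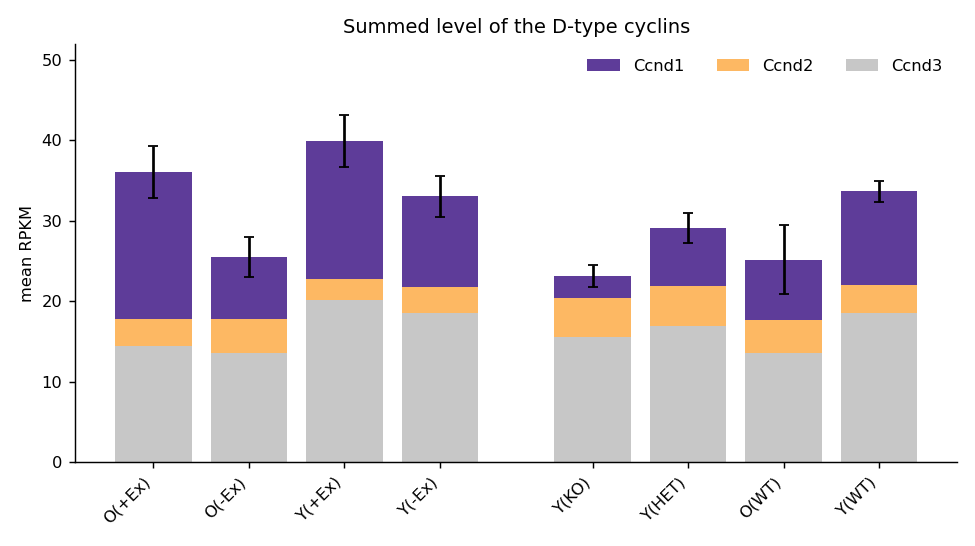
Mean level of the D-type cyclins by group, in RPKM (vertical axis, from 0), stacked with Ccnd3 at the bottom, Ccnd2 in the middle and Ccnd1 at the top; error bars are the SD of the sum over the mice of a group. The sum is lowest in Y(KO), at 23.1 RPKM, where Ccnd3 makes up 67.3% of it.

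Among the kinases, Cdk2, the partner of cyclins E and A at the entry into S phase (ENSMUSG00000025358, mm10 chromosome 10, 128697939 to 128705031, minus strand), was lower without Ccnd1. Cdk2 had 4.28, 4.15, 3.58, 4.21 and 4.14 RPKM in the Y(KO) libraries and 5.85, 5.05, 5.46 and 5.42 RPKM in the Y(HET) libraries, against 5.52, 5.87 and 6.36 RPKM in the Y(WT) libraries. The Y(KO) libraries lay below all others of the 3 genotypes, while Y(HET) and Y(WT) overlapped. Cdk2 fell by 0.54 ± 0.09 in Y(KO) against Y(WT) (log2, SE, adjusted p = 0.00822) and by 0.42 ± 0.08 in Y(KO) against Y(HET) (adjusted p = 0.00919). The change in Y(HET) against Y(WT) was -0.12 ± 0.09 (adjusted p = 0.459). The calls in Y(KO) held when any 1 library was left out. With replicate numbers as a block in the limma fit, both were lost (adjusted p = 0.0578 against Y(WT) and 0.0521 against Y(HET)).

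The other kinases, Cdkn1b and the pocket protein genes did not pass the test in any comparison of the 3 genotypes. Cdk4, the main partner of the D cyclins here by level (ENSMUSG00000006728, mm10 chromosome 10, 127063534 to 127067920, plus strand), had 28.8 to 48.8 RPKM in Y(KO) and 34.6 to 39.8 RPKM in Y(HET), against 40.0 to 42.6 RPKM in Y(WT). Cdk6 (ENSMUSG00000040274, mm10 chromosome 5, 3341485 to 3531008, plus strand) had 0.638 to 1.29 RPKM in Y(KO) and 0.964 to 1.66 RPKM in Y(HET), against 0.737 to 1.20 RPKM in Y(WT). At these levels its confidence intervals were wide, from -0.66 to 0.57 (log2) in Y(KO) against Y(WT). Cdkn1b (ENSMUSG00000003031, mm10 chromosome 6, 134920401 to 134925513, plus strand) had 6.26, 7.5, 8.39, 4.55 and 4.56 RPKM in Y(KO) and 6.74, 7.47, 6.81 and 5.24 RPKM in Y(HET), against 6.05, 5.52 and 4.55 RPKM in Y(WT). The Y(KO) libraries spanned the whole range of Y(WT), with a log2 change of 0.18 ± 0.19 (adjusted p = 0.586). The ratio of Ccnd1 to Cdkn1b was 0.470 ± 0.172 in Y(KO) and 1.12 ± 0.219 in Y(HET), against 2.23 ± 0.597 in Y(WT) (SD).

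Rb1, which encodes the retinoblastoma protein (ENSMUSG00000022105, mm10 chromosome 14, 73183673 to 73325822, minus strand), had 2.96, 4.11, 4.41, 4.72 and 3.71 RPKM in Y(KO) and 4.78, 4.00, 3.90 and 3.64 RPKM in Y(HET), against 5.09, 5.07 and 5.14 RPKM in Y(WT). All Y(KO) and Y(HET) libraries lay below the 3 Y(WT) libraries, which lay close together, at 5.07 to 5.14 RPKM. The share of all genes without overlap was not counted, so this sets Rb1 not apart from all genes. The changes of -0.38 ± 0.13 and -0.33 ± 0.14 did not pass (log2, SE, adjusted p = 0.0937 and 0.172). Rbl2, which encodes the pocket protein p130 of resting cells (ENSMUSG00000031666, mm10 chromosome 8, 91070057 to 91123844, plus strand), had a change of -0.15 ± 0.12 in Y(KO) (adjusted p = 0.456) and -0.29 ± 0.13 in Y(HET) (adjusted p = 0.18). By count, 3 of the 9 genes were called in Y(KO) against Y(WT), where 6.99% of all 11337 genes were called, and their median log2 change was -0.15, against 0.02 over all genes. In Y(HET) against Y(WT) 2 of 9 were called, with 5.39% of all genes, and medians of -0.12 and -0.06. In Y(KO) against Y(HET) 2 of 9 were called, with 6.04% of all genes, and medians of -0.10 and 0.08. Each of these counts includes Ccnd1, the gene targeted by design, so they overstate any response of the other genes.

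The libraries of the Ccnd1 cohort also differed in genes outside the set. Mitotic markers (Mki67, Top2a, Ube2c and Kif11, 4 of 7 listed) summed to 0.716 to 2.85 RPKM in Y(KO) and 2.56 to 4.78 RPKM in Y(HET), against 3.19 to 5.86 RPKM in Y(WT). Endothelial markers (7 of 7) summed to 97.4 to 126 RPKM in Y(KO) and 105 to 119 RPKM in Y(HET), against 68.3 to 96.3 RPKM in Y(WT), with Cldn5 called higher in both, and 3 of the 4 mitotic markers were called lower in Y(KO). Of 10 MuSC markers 1 was called higher in Y(KO), and 3 were called lower in Y(HET), among them Pax7 (-0.49 ± 0.13, adjusted p = 0.0418). Most of this list ran lower in both: the median log2 change was -0.29 in Y(KO), with 3 of 10 above 0, and -0.47 in Y(HET), with 0 of 10. Fibro-adipogenic markers (6 of 6) summed to 267 to 318 RPKM in Y(KO) and 190.3 to 241 RPKM in Y(HET), against 244 to 258 RPKM in Y(WT). In this sum Y(KO) lay above and Y(HET) below every Y(WT) library, although 0 single genes of this list were called by limma. The members did not move together: the median log2 change was 0.12 in Y(KO), with 4 of 6 above 0, and -0.0012 in Y(HET), with 3 of 6. Haematopoietic, myofibre and immediate early markers also had 0 calls by limma in both genotypes, where 2910 genes in Y(KO) and 2615 in Y(HET) had an unadjusted p under 0.05. The part of these differences, and of the keratinocyte genes in Y(HET), in the values of the D cyclins and Cdk2 was not tested.

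Downstream of the pocket proteins, few members of the pathway lists were called in Y(KO), to be read against the 6.99% of all genes called in that comparison. Of 9 measured E2F and DP factors 1 fell, E2f2, an activating E2F, at 0.752 ± 0.118 RPKM in Y(KO) against 1.43 ± 0.0633 RPKM in Y(WT) (log2 -0.94 ± 0.26, adjusted p = 0.0422). Of 13 E2F target genes of S phase 2 fell, the replication helicase genes Mcm2 (-1.06 ± 0.25, adjusted p = 0.0237) and Mcm4 (-0.54 ± 0.15, adjusted p = 0.0473). Mcm2 too was low in level, at 0.756 ± 0.207 RPKM in Y(KO), against 1.54 ± 0.0832 RPKM in Y(WT) (SD). The list's median was -0.09. Of the 2 measured E and A cyclins and Cdc25a genes, Ccna2, which encodes the S phase partner of Cdk2, fell by 1.63 ± 0.34 in Y(KO) against Y(WT) (adjusted p = 0.0153) and by 1.26 ± 0.31 against Y(HET) (adjusted p = 0.0288). Ccna2 levels were low, at 0.313 ± 0.0993 RPKM in Y(KO) and 0.738 ± 0.217 RPKM in Y(HET), against 0.9495 ± 0.259 RPKM in Y(WT) (SD). None of 5 MuvB and DREAM genes, most of which encode parts of repressor complexes formed with p130, was called in any comparison of genotypes by limma.

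Among 5 other CDK inhibitor genes 1 fell in each genotype, where 6.99% of all genes were called in Y(KO) and 5.39% in Y(HET); with lists this short, single calls like this and those that follow set no list apart from all genes. Cdkn1c, which encodes p57, had 17.8 ± 1.77 RPKM in Y(KO) and 18.9 ± 4.84 RPKM in Y(HET), against 41.6 ± 21.3 RPKM in Y(WT), where the libraries spread over 26.95 to 66.0 RPKM. Cdkn1c fell by 1.11 ± 0.25 in Y(KO) (log2, SE, adjusted p = 0.0223) and by 1.06 ± 0.26 in Y(HET) (adjusted p = 0.0365). Of 6 genes for the turnover of D cyclins and p27 1 fell in Y(KO), Gsk3b, a kinase that marks cyclin D1 for export and breakdown (-0.43 ± 0.08, adjusted p = 0.0117). Of 4 genes for the CDK activating kinase and CDK chaperone 1 rose in Y(KO), the kinase gene Cdk7 (0.39 ± 0.11, adjusted p = 0.0441). In Y(HET) the 6 lists other than that of CDK inhibitors had 0 calls, while 2615 genes of the table had an unadjusted limma p under 0.05.

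**Figure D3:**
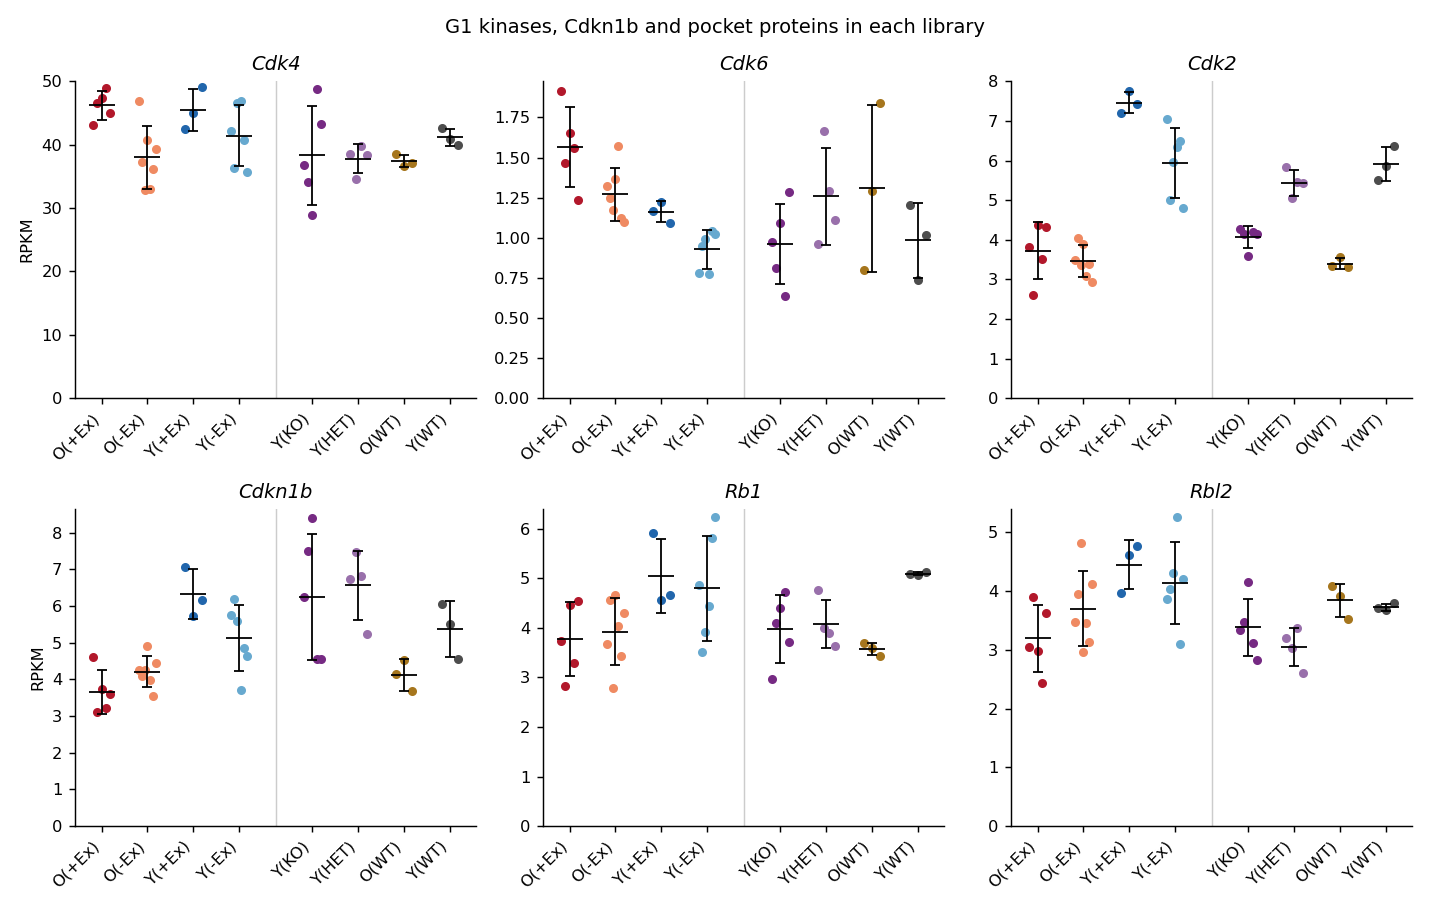
Level of Cdk4, Cdk6, Cdk2, Cdkn1b, Rb1 and Rbl2 in RPKM (vertical axes, from 0) in each library, by group (horizontal axes, wheel cohort left of the grey line). Points are mice, and black bars give mean and SD. For Cdk2 the Y(KO) libraries, at 3.58 to 4.28 RPKM, lie below those of Y(HET) and Y(WT).

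With a free wheel in old mice, Ccnd1 and Cdk4 were called and the other 7 genes were not. Ccnd1 had 18.1, 15.1, 23.9, 19.6 and 14.9 RPKM in the O(+Ex) libraries, against a lowest, median and highest of 6.11, 7.34 and 9.70 RPKM in the 7 O(-Ex) libraries. The groups did not overlap, and the log2 change of 1.24 ± 0.13 was 2.36-fold (SE, adjusted p = 4.01e-05). Cdk4 had 43.1, 46.5, 47.4, 49.0 and 45 RPKM in the O(+Ex) libraries, against 32.8, 37.2 and 47.0 RPKM as lowest, median and highest in the O(-Ex) libraries. The groups overlapped through O(-Ex) 1, the highest of its group. Cdk4 rose by 0.29 ± 0.09 (adjusted p = 0.045). Its call was lost in 11 of 12 omissions of 1 library (adjusted p = 0.0505 to 0.101), each of the O(+Ex) libraries and O(-Ex) 2 to 7, while without O(-Ex) 1 it was 0.34 (adjusted p = 0.0166). It was also lost with variances neither trended nor robust, with all 36 libraries in 1 fit and with only the 2 groups.

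The other D cyclins did not pass in old mice. Ccnd2 had 3.70, 3.08, 3.17, 3.54 and 3.12 RPKM in the O(+Ex) libraries, against 3.19, 4.26 and 5.33 RPKM as lowest, median and highest in the O(-Ex) libraries, a log2 change of -0.32 ± 0.13 (adjusted p = 0.124). Ccnd3 had 12.7 to 15.8 RPKM in O(+Ex) and 12.4 to 15.8 RPKM in O(-Ex), with a change of 0.10 and a 95% confidence interval of -0.05 to 0.24 (adjusted p = 0.445). The D cyclin sum was 36.1 ± 3.27 RPKM in O(+Ex), against 25.5 ± 2.48 RPKM in O(-Ex) (SD), with no overlap. Ccnd1 made up 50.3% of it in O(+Ex), against 30.2% in O(-Ex).

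Cdk6 had 1.23 to 1.91 RPKM in O(+Ex), against 1.10 to 1.57 RPKM in O(-Ex) (log2 0.29 ± 0.15, adjusted p = 0.234), and Cdk2 changed by 0.09 ± 0.12 (adjusted p = 0.705). Cdkn1b had 4.61, 3.12, 3.73, 3.22 and 3.60 RPKM in O(+Ex), against 3.56, 4.25 and 4.92 RPKM as lowest, median and highest in O(-Ex), a change of -0.21 ± 0.12 (adjusted p = 0.298). The ratio of Ccnd1 to Cdkn1b was 5.08 ± 1.12 in O(+Ex), against 1.84 ± 0.282 in O(-Ex) (SD). Rb1 and Rbl2 changed by -0.06 ± 0.16 and -0.21 ± 0.14 (adjusted p = 0.861 and 0.366). In total 2 of the 9 genes were called, both higher, where 7.39% of all genes were called. The median log2 change of the 9 genes was 0.09, against -0.01 over all genes.

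In young mice none of the 9 genes passed with a free wheel. Ccnd1 had 15.0, 19.5 and 16.9 RPKM in the Y(+Ex) libraries, against 9.58, 10.8 and 14.5 RPKM as lowest, median and highest in the 6 Y(-Ex) libraries. The groups did not overlap, and the log2 change was 0.61 ± 0.16 (adjusted p = 0.0639). Without Y(-Ex) 3, the highest of its group, the change was 0.68 and passed (adjusted p = 0.0309), as it did with all 36 libraries in 1 fit (adjusted p = 0.0467). Cdk2 had 7.21, 7.75 and 7.43 RPKM in Y(+Ex), against 4.80, 6.15 and 7.06 RPKM as lowest, median and highest in Y(-Ex). The groups did not overlap here either, with a change of 0.34 ± 0.15 (adjusted p = 0.268). Ccnd2 changed by -0.30 ± 0.15 (adjusted p = 0.345), Ccnd3 by 0.12 ± 0.09 (adjusted p = 0.519), Cdk4 by 0.14 ± 0.11 (adjusted p = 0.545), Cdk6, whose groups did not overlap, by 0.33 ± 0.18 (adjusted p = 0.373) and Cdkn1b by 0.32 ± 0.15 (adjusted p = 0.29). For Rb1 and Rbl2 the changes were 0.09 ± 0.19 and 0.12 ± 0.17 (adjusted p = 0.858 and 0.778). The count of 0 of 9 stands beside 1.12% of all genes called and 1796 genes whose unadjusted limma p was under 0.05, 3 of the 9 among them (Ccnd1, Cdk2 and Cdkn1b). The median of the 9 changes was 0.14, against 0.00 over all genes.

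Tested directly, the change with the wheel in old mice minus that in young mice was called for 0 of the 9 genes by limma, where 0.00882% of all genes were called and 960 had an unadjusted p under 0.05. It was largest for Ccnd1, at 0.63 ± 0.21 on the log2 scale (adjusted p = 0.429), and for Cdkn1b, at -0.53 ± 0.19 (adjusted p = 0.491), the 2 genes with an unadjusted p under 0.05. The change in Cdkn1b with the wheel was -0.21 in old and 0.32 in young mice. Mitotic markers (4 of 7) summed to 3.30 to 5.14 RPKM in O(+Ex), against 1.45 to 2.38 RPKM in O(-Ex), and to 10.1 to 12.9 RPKM in Y(+Ex), against 3.49 to 5.91 RPKM in Y(-Ex). Of these 4 markers 3 were called higher in old mice and 2 in young mice, where 7.39% and 1.12% of all genes were called. Endothelial markers (7 of 7) summed to 126 to 175 RPKM in O(+Ex), against 78.7 to 136 RPKM in O(-Ex), with 3 of 7 called higher, and they summed to 75.8 to 88.8 RPKM in Y(+Ex), against 68.8 to 108 RPKM in Y(-Ex). Among the MuSC, fibro-adipogenic, haematopoietic, myofibre and immediate early markers, calls in old mice were limited to 1 MuSC marker (lower) and 1 fibro-adipogenic marker (higher), and in young mice there were 0 calls by limma. The part of these differences in the changes of Ccnd1 and Cdk4 was not tested. Of the 7 pathway lists, 1 member was called in each age, Mcm4 in old mice (-0.52 ± 0.10, adjusted p = 0.00402) and Pcna, the sliding clamp of DNA replication, in young mice (-0.35 ± 0.08, adjusted p = 0.0378).

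**Figure D4:**
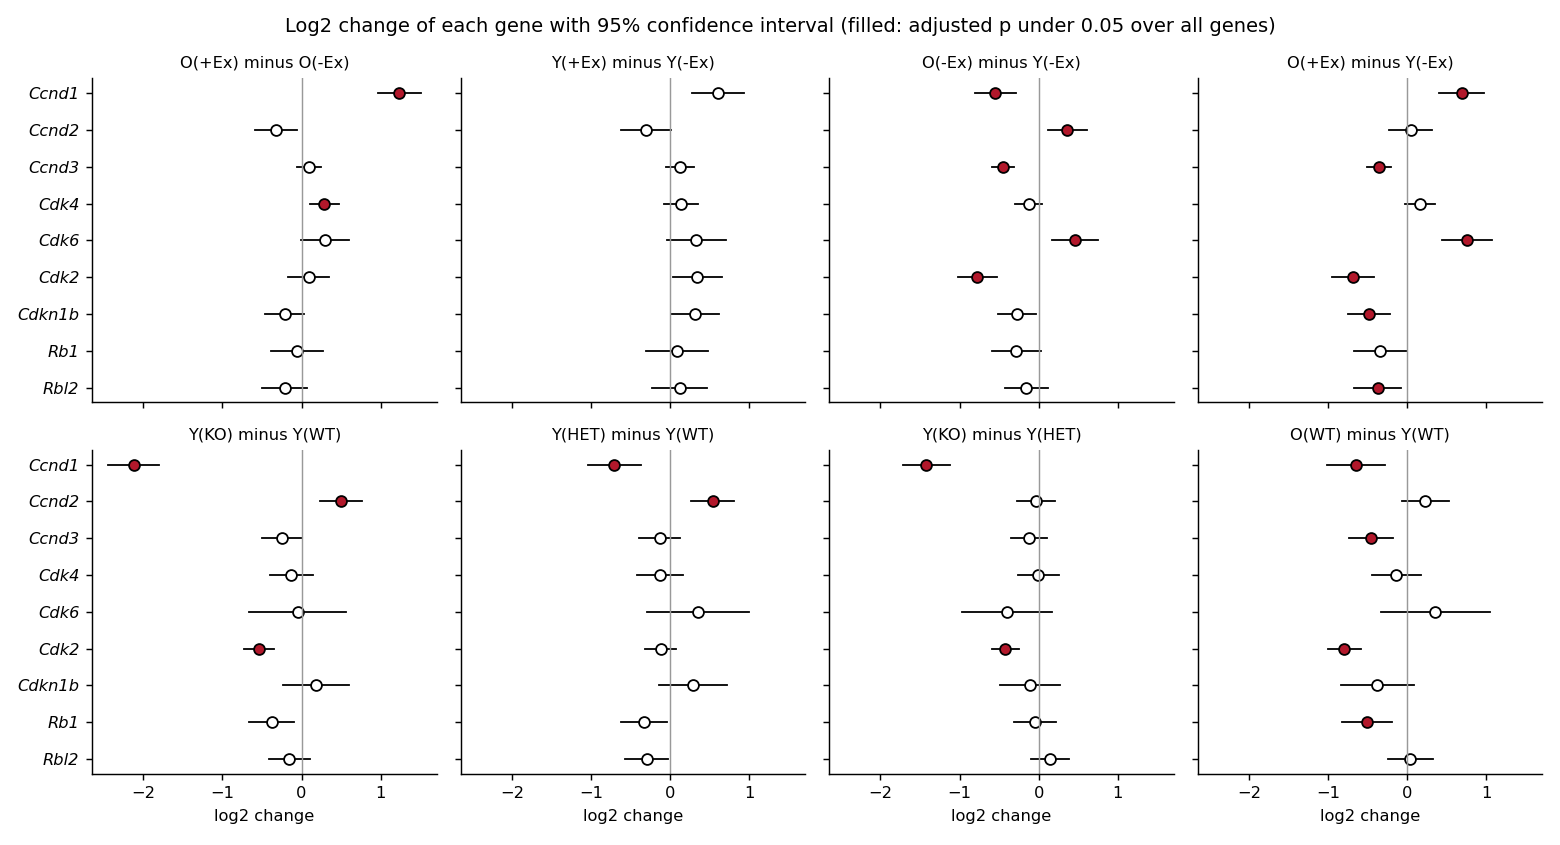
Log2 change of the 9 genes in 8 comparisons (horizontal axes), with 95% confidence intervals; points are filled in red where the adjusted p over all genes is under 0.05. In the upper left panel Ccnd1 (1.24) and Cdk4 (0.29) are filled, and in the lower left panel Ccnd1 (-2.12), Ccnd2 (0.50) and Cdk2 (-0.54).

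With age and a locked wheel, 5 of the 9 genes changed, where 38.3% of all genes were called. Ccnd1 had 6.11, 7.34 and 9.70 RPKM in O(-Ex), against 9.58, 10.8 and 14.5 RPKM in Y(-Ex), each as lowest, median and highest, so that the groups met at their edges. Ccnd1 fell by 0.55 ± 0.13 (adjusted p = 0.00161). Ccnd3 had 12.4, 13.1 and 15.8 RPKM in O(-Ex), against 17.0, 18.9 and 19.5 RPKM in Y(-Ex), with no overlap, and fell by 0.45 ± 0.07 (adjusted p = 2.71e-05). Cdk2 had 2.94, 3.38 and 4.04 RPKM in O(-Ex), against 4.80, 6.15 and 7.06 RPKM in Y(-Ex), with no overlap. It fell by 0.78 ± 0.12, the largest change among the 9 genes in this comparison (adjusted p = 3.16e-05).

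Ccnd2 and Cdk6 changed in the other direction with age. Ccnd2 had 3.19, 4.26 and 5.33 RPKM in O(-Ex), against 2.55, 3.40 and 3.72 RPKM in Y(-Ex), and rose by 0.37 ± 0.12 (adjusted p = 0.0203). The groups overlapped, and the call was lost without O(-Ex) 5, Y(-Ex) 1 or Y(-Ex) 4 in turn (adjusted p = 0.0515, 0.0515 and 0.056). Cdk6 had 1.10, 1.25 and 1.57 RPKM in O(-Ex), against 0.774, 0.970 and 1.04 RPKM in Y(-Ex), without overlap, and rose by 0.46 ± 0.14 (adjusted p = 0.0132). Cdkn1b changed by -0.27 ± 0.12 (adjusted p = 0.069), and passed without O(-Ex) 4 (adjusted p = 0.0483) or Y(-Ex) 4 (adjusted p = 0.0117). Cdk4, Rb1 and Rbl2 had changes of -0.12 ± 0.08, -0.28 ± 0.15 and -0.16 ± 0.13 (adjusted p = 0.246, 0.146 and 0.364). The median over the 9 genes was -0.27, against 0.01 over all genes. The D cyclin sum was 25.5 ± 2.48 RPKM in O(-Ex), against 33.0 ± 2.57 RPKM in Y(-Ex) (SD), with no overlap.

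In the Ccnd1 cohort 4 of the 9 genes were called lower with age, where 15.8% of all genes were called, and these values are not independent of those of the wheel cohort. Cdk2 had 3.33, 3.57 and 3.30 RPKM in the O(WT) libraries, against 5.52, 5.87 and 6.36 RPKM in the Y(WT) libraries, and fell by 0.80 ± 0.10 (adjusted p = 0.000818). Ccnd1 had 9.16, 6.51 and 6.88 RPKM in O(WT), against 11.2, 10.6 and 13.3 RPKM in Y(WT), and fell by 0.65 ± 0.17 (adjusted p = 0.021). Ccnd3 fell by 0.46 ± 0.13 (adjusted p = 0.0304), with 15.8, 14.1 and 10.9 RPKM in O(WT), against 19.4, 20.1 and 16.1 RPKM in Y(WT). For these 3 genes the groups did not overlap, and likewise for Rb1, which had 3.69, 3.60 and 3.44 RPKM in O(WT), against 5.09, 5.07 and 5.14 RPKM in Y(WT), and fell by 0.51 ± 0.15 (adjusted p = 0.0317). How many of all genes had no overlap between these groups of 3 mice was not counted.

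The Cdk2 call held in every omission of 1 library. O(WT) 2 and O(WT) 3 are the libraries named above for keratinocyte and haematopoietic genes. The Ccnd1 call was lost without Y(WT) 3, O(WT) 2 or O(WT) 3 in turn (adjusted p = 0.0813, 0.0739 and 0.0755), and that of Ccnd3 without Y(WT) 1, Y(WT) 2, O(WT) 2 or O(WT) 3 (adjusted p = 0.0827, 0.102, 0.0502 and 0.138), its change without O(WT) 3 being -0.30, and also with only these groups in the fit. For Rb1 it was lost in all 6 omissions (adjusted p = 0.0587 to 0.0955) and with all 36 libraries in 1 fit. Ccnd2 was not called in this cohort, at 0.23 ± 0.14 (adjusted p = 0.267), nor was Cdk6 at 0.36 ± 0.32 (adjusted p = 0.473). Cdkn1b and Cdk4, with no overlap, and Rbl2, with overlap, changed by -0.38 ± 0.22, -0.14 ± 0.15 and 0.04 ± 0.14 (adjusted p = 0.245, 0.546 and 0.864). The median of the 9 genes was -0.38, against -0.01 over all genes.

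Set against young mice with a locked wheel, old mice with a free wheel differed in 6 of the 9 genes, where 41% of all genes were called. Ccnd1 was 0.69 ± 0.14 higher on the log2 scale in O(+Ex) than in Y(-Ex) (adjusted p = 0.000423), all 5 libraries lying above the highest Y(-Ex) library. Cdk6 was also higher, by 0.75 ± 0.15 (adjusted p = 0.000532). Cdk2 fell by 0.68 ± 0.13 in O(+Ex) against Y(-Ex) (adjusted p = 0.000262), Ccnd3 by 0.36 ± 0.07 (adjusted p = 0.000654), Cdkn1b by 0.48 ± 0.13 (adjusted p = 0.00404) and Rbl2 by 0.37 ± 0.14 (adjusted p = 0.0411). Ccnd1, Cdk6, Cdk2 and Ccnd3 had no overlap between the groups. Here and in the other comparisons the share of all genes without overlap was not counted, so a lack of overlap sets no gene apart from all genes. The Rbl2 call was lost in 7 of 11 omissions (without O(+Ex) 1, 3 or 4, or Y(-Ex) 2, 3, 4 or 6), with adjusted p = 0.0581 to 0.134 in these, and with only these groups in the fit. Ccnd2, Cdk4 and Rb1 were not called, at 0.05 ± 0.13, 0.17 ± 0.09 and -0.34 ± 0.16 (adjusted p = 0.809, 0.148 and 0.0997), and Rb1 passed without Y(-Ex) 2 (-0.42, adjusted p = 0.0441). The comparison shares its libraries with those of the wheel in old mice and of age. The median over the 9 genes was -0.34, against 0.02 over all genes.

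Pathway genes were also called with age, at counts that stand beside 38.3% of all genes called in O(-Ex) against Y(-Ex) and that set no list apart from them. In this comparison 3 of 5 other CDK inhibitor genes fell, with Cdkn2d at -0.60 ± 0.11 (adjusted p = 0.000282) and Cdkn2b, an inhibitor of Cdk4 and Cdk6, at -0.82 ± 0.18 (adjusted p = 0.00131). Of 9 E2F and DP factors 2 rose and 2 fell. The activators E2f2 (-1.30 ± 0.20, adjusted p = 3.76e-05) and E2f3 (-0.65 ± 0.15, adjusted p = 0.0015) fell, and E2f4 (0.27 ± 0.10, adjusted p = 0.0374) and E2f6 (0.34 ± 0.09, adjusted p = 0.00431), which act mainly in repressor complexes, rose. Of 13 E2F target genes 3 rose and 3 fell, with the licensing gene Cdt1 at 0.50 ± 0.13 (adjusted p = 0.00512) and Mcm2 at -0.96 ± 0.24 (adjusted p = 0.00322), and the list's median was 0.01. Ccna2 fell by 1.17 ± 0.38 (adjusted p = 0.0171), Gsk3b by 0.55 ± 0.08 (adjusted p = 2.35e-05) and the chromatin factor gene Rbbp4, 1 of 5 MuvB and DREAM genes, by 0.35 ± 0.09 (adjusted p = 0.00305). Of the 4 genes for the CDK activating kinase and chaperone 2 rose, Cdk7 (0.25 ± 0.09, adjusted p = 0.0257) and the chaperone gene Cdc37 (0.23 ± 0.06, adjusted p = 0.00685).

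In O(WT) against Y(WT), where 15.8% of all genes were called, the lists held 2 of 5 CDK inhibitors lower, 1 of 9 E2F and DP factors higher and 1 lower, and 1 of 13 E2F targets higher and 2 lower. E2f2 (-1.18 ± 0.29, adjusted p = 0.0143), Mcm2 (-1.18 ± 0.28, adjusted p = 0.0118), Ccna2 (-1.28 ± 0.38, adjusted p = 0.0331) and Gsk3b (-0.64 ± 0.09, adjusted p = 0.00104) fell there, and E2f4 rose (0.49 ± 0.11, adjusted p = 0.00936). No MuvB, DREAM, CDK activating kinase or chaperone gene was called in this cohort's age comparison. In O(+Ex) against Y(-Ex), with 41% of all genes called, 2 of 9 E2F and DP factors were higher and 1 lower. Of 13 E2F targets 3 were higher and 2 lower there. E2f2 (-0.85 ± 0.22, adjusted p = 0.00399) was lower, and E2f4 (0.39 ± 0.11, adjusted p = 0.0066) and E2f6 (0.39 ± 0.10, adjusted p = 0.00266) were higher. Mcm4 (-0.90 ± 0.10, adjusted p = 1.21e-06) and Mcm6 (-0.96 ± 0.22, adjusted p = 0.00169) were lower, and Cdt1 (0.68 ± 0.15, adjusted p = 0.000819) and Mcm5 (0.71 ± 0.18, adjusted p = 0.00399) were higher. Markers of other cells and states differed with age too, again beside 38.3% of all genes called in O(-Ex) against Y(-Ex). Mitotic markers summed to 1.45 to 2.38 RPKM in O(-Ex), against 3.49 to 5.91 RPKM in Y(-Ex), and 4 of 4 were lower. Fibro-adipogenic markers (6 of 6) summed to 362 to 425 RPKM in O(-Ex), against 229 to 287 RPKM in Y(-Ex), with 4 higher and 1 lower, and myofibre markers (7 of 8) to 42.7 to 171 RPKM in O(-Ex), against 115 to 648 RPKM in Y(-Ex), with 2 lower. Endothelial markers had 2 of 7 higher, MuSC markers 5 of 10 lower and immediate early genes 4 of 7 lower. In the Ccnd1 cohort fibro-adipogenic markers summed to 366 to 499.8 RPKM in O(WT), against 244 to 258 RPKM in Y(WT), with 2 of 6 higher. Endothelial markers summed to 103 to 106 RPKM in O(WT), against 68.3 to 96.3 RPKM in Y(WT), with 2 of 7 higher, and mitotic markers to 1.62 to 1.83 RPKM in O(WT), against 3.19 to 5.86 RPKM in Y(WT), with 2 of 4 lower. None of these 3 sums overlapped between O(WT) and Y(WT), where 3 of 10 MuSC markers and 2 of 7 immediate early genes were also lower. Their part in the age differences of the 9 genes was not tested.

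Across the 8 groups, the order of the Ccnd1 means was O(+Ex) at 18.3 ± 3.69, Y(+Ex) at 17.1 ± 2.25, Y(WT) at 11.7 ± 1.40, Y(-Ex) at 11.3 ± 1.85, O(-Ex) at 7.72 ± 1.32, O(WT) at 7.52 ± 1.44, Y(HET) at 7.18 ± 0.723 and Y(KO) at 2.71 ± 0.495 RPKM (SD). Neighbours in this order overlapped, with 2 exceptions: Y(+Ex) lay above Y(WT), and Y(HET) above Y(KO). The order of Ccnd2 was nearly the reverse at its ends. Ccnd2 was highest in Y(HET) at 4.99 ± 0.497 RPKM and Y(KO) at 4.85 ± 0.169 RPKM, and lowest in Y(+Ex) at 2.62 ± 0.278 RPKM, with overlap between all neighbours in the order. For Cdk2 the order ran from Y(+Ex) at 7.46 ± 0.271 RPKM to O(WT) at 3.40 ± 0.147 RPKM, with the groups of young mice that kept at least 1 copy of Ccnd1 above Y(KO) and the groups of old mice. Neighbours overlapped except Y(+Ex) with Y(-Ex) and Y(HET) with Y(KO). Neighbours in the orders of Ccnd3, Cdk4, Cdk6, Cdkn1b, Rb1 and Rbl2 all overlapped.

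**Figure D5:**
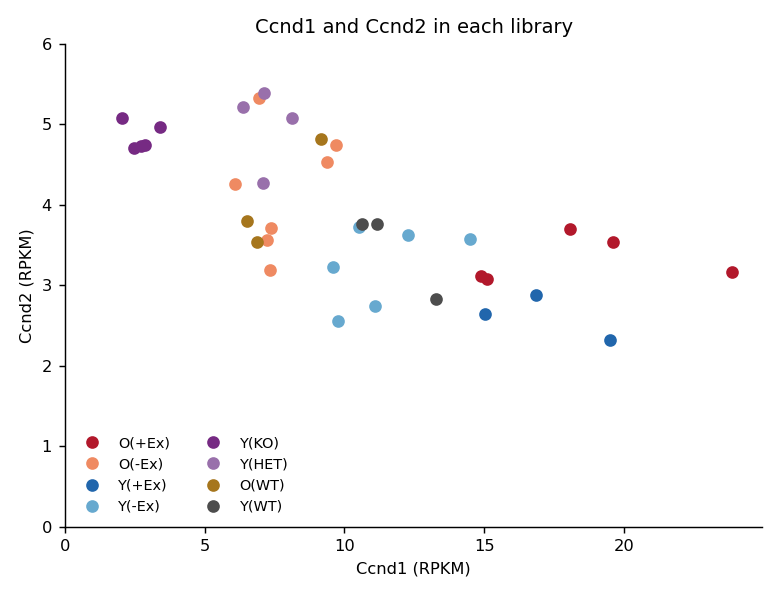
Ccnd1 (horizontal axis) and Ccnd2 (vertical axis) in RPKM in each of the 36 libraries, coloured by group. The Y(KO) libraries lie at the upper left, with 4.70 to 5.08 RPKM of Ccnd2, and the O(+Ex) and Y(+Ex) libraries at the lower right, with 2.32 to 3.70 RPKM.

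As a description of likeness, Pearson's r of log2 values with Ccnd1 was taken over the 36 libraries, which share their groups and the processing of the table. Ccnd2 had an r of -0.66 and Cdk4 of 0.58, while Cdk2 (0.32), Cdk6 (0.30), Ccnd3 (0.26), Rb1 (0.21), Rbl2 (0.10) and Cdkn1b (-0.34) lay between them. Over deviations from the group means r was 0.19 for Ccnd2 and 0.53 for Cdk4, so that the opposite course of Ccnd1 and Ccnd2 lay between groups and not among mice of a group. The authors' deposited table gives a correlation coefficient with Ccnd1 of -0.749 for Ccnd2 and 0.6662 for Cdk4. Where the mean reached 5 RPKM, the genes most like Ccnd1 were Commd3 (0.78), Stmn1 (0.78), Jmjd8 (0.73), Alad (0.72) and Nelfcd (0.71), and the most unlike were Ccdc117 (-0.76), Pnrc1 (-0.75) and Snord35a (-0.73). Stmn1, which encodes the microtubule regulator stathmin, had 9.40 ± 0.477 RPKM in O(+Ex), against 5.85 ± 0.665 RPKM in O(-Ex), and 5.17 ± 1.01 RPKM in Y(KO), against 8.01 ± 0.912 RPKM in Y(WT) (SD).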

How the data were processed

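The authors deposited 1 table of RPKM values for 11337 genes in 36 libraries, made from poly(A)-primed RNA of sorted cells. Per the submitters' processing notes the reads passed through Trim Galore, STAR and featureCounts of Subread, with mm10 as the genome build; versions and the strand setting were not stated there. The authors' deposited correlation coefficient of each gene with Ccnd1 is used as a score. The values held no zero, so log2 RPKM was taken with no pseudocount. Limma 3.58.1 in R 4.3.3 fitted 1 mean per group in each cohort with trended, robust variances, with Benjamini-Hochberg adjustment across the 11337 genes; a call is an adjusted p under 0.05. The procedure was tested on simulated data, drawn independently for each library and with no direction removed. That test therefore cannot show how the p-values behave on the deposited values, which lack 6 directions. Each replicate is 1 mouse, and p-values measure the spread between mice that was left after 6 directions had been removed before deposit. The fits did not count these directions as lost, so SEs, confidence intervals and p-values can be too small. The genes and lists were chosen with earlier results of these data known. In each pathway list up to 2 called genes per direction, by lowest p, could be named. Gene positions are those of GENCODE on mm10. Other settings of scaling, filter, pseudocount, variance model, libraries in the fit and replicate block were tried, and each library was left out in turn.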

Additional observations from a re-analysis of the deposited data

Results flagged for a closer look

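In Y(KO), 1 library stood apart from the others of its group in Cdk2: the third replicate had 3.584 RPKM, while the other 4 had 4.144 to 4.283 RPKM. Its gap to the nearest library was 0.8013 of the range of the group. This was the 1 case among 45 gene and group combinations with 4 or more libraries, where chance marks about 1 in 20. Without this library Cdk2 stayed lower in Y(KO) than in Y(WT).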

How the results depend on the processing

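Of 24 calls among 81 gene comparisons, 16 held in all 7 other settings and 15 in every omission of 1 library, and none turned round. The count of the 9 genes called in O(+Ex) against O(-Ex) fell to 1 with variances neither trended nor robust, with all 36 libraries in 1 fit, with only the groups compared and with the replicate block, and lay between 1 and 2 in omissions. In Y(+Ex) against Y(-Ex) it was 1 with all 36 libraries, and 0 to 1 in omissions. In Y(HET) against Y(WT) it was 1 with only the groups compared and 0 to 2 in omissions, and in O(WT) against Y(WT) 1 to 3 in omissions. Replicate numbers were not taken as pairs of mice (correlations of same-numbered deviations from -0.2587 to 0.3016). The correlations cannot exclude a pairing, because directions of variation had been removed from the values before deposit. With replicate numbers as a block, 1 gene was called in each of Y(KO) against Y(WT), Y(HET) against Y(WT) and Y(KO) against Y(HET). That gene was Ccnd1, and the calls of Ccnd2 and Cdk2 in these comparisons were lost. The block also ended the calls of Cdk4 in O(+Ex) against O(-Ex), Rbl2 in O(+Ex) against Y(-Ex) and Rb1 in O(WT) against Y(WT). Changes that were never called turned round as follows. For the wheel in old minus young mice, Cdk6 was 0.006 with a pseudocount of 1 and Ccnd3 0.0147 with the replicate block, and omissions gave -0.1019 to 0.0522 for Ccnd2, -0.0592 to 0.0206 for Ccnd3 and -0.1144 to 0.0435 for Cdk6. In other omissions Rb1 ran from -0.1382 to 0.0386 with the wheel in old mice and from -0.0268 to 0.1741 in young mice, Ccnd2 from -0.0207 to 0.0878 in O(+Ex) against Y(-Ex), Cdk6 from -0.2438 to 0.1102 in Y(KO) against Y(WT), and Rbl2 from -0.0037 to 0.1023 in O(WT) against Y(WT). In Y(KO) against Y(HET) they ran from -0.1105 to 0.0018 for Ccnd2, -0.0952 to 0.0947 for Cdk4 and -0.112 to 0.056 for Rb1. Over all genes, calls in Y(KO) against Y(WT) numbered 793, against 379 with only the groups compared, 1 with the replicate block and 98 to 938 in omissions, the lowest without Y(WT) 3. In Y(HET) against Y(WT) they numbered 611, against 300, 179 and 68 to 621, the lowest without Y(WT) 2. In Y(KO) against Y(HET) they numbered 685, against 327, 262 and 265 to 743, and 330 with scaling by the median ratio. In Y(+Ex) against Y(-Ex) they numbered 127, against 22, 14 and 5 to 205, and 84 with plain variances. In O(+Ex) against O(-Ex) 838 genes were called, and 351 to 923 in omissions; in O(WT) against Y(WT) 1790, and 873 to 1366; and for the wheel in old minus young mice 1, against 2 with a pseudocount of 1 and 1 to 5 in omissions. Scaling by the median ratio moved the share of higher calls to 61.12% from 72.26% in Y(KO) against Y(WT), to 59.44% from 36.82% in Y(HET) against Y(WT) and to 60.3% from 85.26% in Y(KO) against Y(HET). The cause was not tested.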
